A study of Mus musculus with 16 samples.

Results

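The genes described here are 10 secreted or secretion-related products of mucosal surfaces, measured by RNA sequencing in the mouse stomach: Pigr, Reg3g, Reg3b, Ltf, Lcn2, Slpi, Lyz1, Lyz2, Saa1 and Saa3. They were taken by symbol from a table of 24964 gene symbols, and all 10 were found in it. Of these, 6 passed the filter on low counts and were tested, and 4 did not pass (Reg3b, Saa1, Saa3 and Lyz1). Ltf was picked because of its large difference between the WT groups, so its values are given without a test in every comparison that uses a WT library. The other 9 were chosen by name, with earlier results of these data known.

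The mucosal lining is defended in part by proteins that its epithelium releases. The polymeric immunoglobulin receptor, encoded by Pigr, carries IgA and IgM from the tissue through epithelial cells to the lumen. C-type lectins of the Reg3 family bind bacterial cell walls, lysozymes cut the peptidoglycan of those walls, and lactoferrin (Ltf) and lipocalin 2 (Lcn2) withhold iron from microbes, Lcn2 by binding bacterial siderophores. Slpi inhibits neutrophil proteases, and the serum amyloid A proteins are acute-phase proteins, made in the liver and at mucosal surfaces during inflammation.

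The 16 libraries came from female mice aged 8 weeks, 4 libraries in each of 4 groups, each from a 4 mm biopsy taken at the lesser curvature of the corpus, the acid-secreting body of the stomach. WT-S and WT-A were C57BL/6 wild-type mice. TTP-S and TTP-A carried TTPΔARE on a congenic C57BL/6 background, an allele of Zfp36 that lacks an AU-rich regulatory element and is known to raise the level of tristetraprolin (TTP), a protein that binds AU-rich elements in other mRNAs and speeds their decay. Whether the allele was carried on both chromosomes is not said in the labels. A denotes adrenalectomy, after which the corpus becomes inflamed, and the treatment label of the S groups names spasmolytic polypeptide-expressing metaplasia (SPEM), a lineage of mucous cells in injured glands. What S abbreviates is not given, so it serves here only as a group name, and A is compared with S as labelled. The labels do not say that each library was a separate animal, so p-values measure the spread between these libraries.

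Each library held 17453930 to 25849472 counts, and 15385 genes were tested. Zfp36 was at 55.1 to 65.8 CPM (counts scaled to library size) in WT-S, 115 to 130 in TTP-S, 63.2 to 88.6 in WT-A and 111 to 131 in TTP-A, so every TTP library lay above every WT library. The parietal cell pump gene Atp4a averaged 11410 to 13040 CPM in the 4 groups. Other corpus markers moved in WT-A against WT-S: 8.99% of all genes tested were called lower, and of 5 parietal cell markers 3 fell (Gif, Kcne2 and Slc26a7), and of 5 chief cell markers 3 fell (Chia1, Pgc and Gif) and 1 rose (Pga5). Gif is on both lists and was counted in each. The parietal markers Atp4a and Atp4b were not called. By contrast, the antral hormone gene Gast had 0 to 7 counts and the intestinal factor Cdx2 0 to 3. Libraries WT-A 3 and WT-A 4 stood apart in base composition: the Spearman correlation, over 11493 genes, between a gene's GC content and the deviation of its log2 CPM from the median library was 0.716 and 0.738 in them, and between -0.302 and 0.164 in the other 14. For this reason many, though not all, results that involve WT-A are also given over the 14 other libraries. Calls of cell type markers were not checked over these 14. In bulk tissue, fewer cells of a type and less RNA per cell cannot be told apart.

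The 4 promoters shown here belong to the 4 of the 6 tested members with the highest ratio of highest to lowest library, and form the pairs Pigr with Reg3g and Ltf with Slpi that are described later. Each is the 250 bases upstream of the RefSeq start site on GRCm38.p6 (mm10), printed on the gene's own strand, and capitals mark motif matches.
Pigr, chr1:130826434-130826683, plus strand: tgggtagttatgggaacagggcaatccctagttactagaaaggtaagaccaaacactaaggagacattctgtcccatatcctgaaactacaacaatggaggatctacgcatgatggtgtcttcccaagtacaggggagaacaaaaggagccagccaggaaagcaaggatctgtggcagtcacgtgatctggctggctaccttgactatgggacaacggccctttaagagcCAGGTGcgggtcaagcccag
Reg3g, chr6:78468875-78469124, minus strand: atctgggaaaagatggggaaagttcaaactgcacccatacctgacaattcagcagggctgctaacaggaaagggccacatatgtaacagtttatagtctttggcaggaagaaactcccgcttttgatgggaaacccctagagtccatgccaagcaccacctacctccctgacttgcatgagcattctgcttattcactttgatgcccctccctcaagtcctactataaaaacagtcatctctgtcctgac
Ltf, chr9:111019042-111019291, plus strand: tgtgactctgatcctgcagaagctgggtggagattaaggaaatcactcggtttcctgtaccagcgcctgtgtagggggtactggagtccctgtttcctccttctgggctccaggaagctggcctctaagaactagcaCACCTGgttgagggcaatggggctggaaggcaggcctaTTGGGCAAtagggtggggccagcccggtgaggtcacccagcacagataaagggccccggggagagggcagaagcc
Slpi, chr2:164356508-164356757, minus strand: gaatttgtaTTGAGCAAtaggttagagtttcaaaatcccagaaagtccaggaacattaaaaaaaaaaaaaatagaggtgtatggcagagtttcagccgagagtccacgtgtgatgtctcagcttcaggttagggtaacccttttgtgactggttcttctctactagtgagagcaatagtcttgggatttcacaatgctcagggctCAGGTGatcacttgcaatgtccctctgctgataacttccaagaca

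Both strands were searched for TTCNNNGAA (STAT), GAAANNGAAA (interferon regulatory factors), GGGNNNTTCC (NF-kB), TTGCNNAA (C/EBP), GNACANNNTGTNC (glucocorticoid receptor) and CACCTG (an E-box). Among 32851 promoter windows of the same length, these were held by 7.02%, 2.98%, 4.65%, 9.56%, 0.387% and 17.2%, in that order. Pigr held 1 E-box match 20 bases before its start. Reg3g held none of the 6. Ltf held 1 C/EBP and 1 E-box match, and Slpi likewise 1 of each. A match is a description of letters only. In GENCODE M21 on the same build, Pigr spans chr1:130826684-130852249, Reg3g chr6:78466269-78468872 with Reg3b near it at chr6:78370657-78373466, Ltf chr9:111019271-111042767 and Slpi chr2:164354070-164389095.

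The AU-rich element that TTP recognises is usually a TATTTAT heptamer in DNA letters, found in 3′UTRs. Among the 10 members, only Ltf carried it, once, in exon 17, the last one, at chr9:111042751-111042757 (GENCODE M21, mm10, plus strand), position 569 of a 3′UTR of 585 bases. The site with its surroundings, heptamer in capitals, was:
Ltf: aaaattaaattTATTTATttacatccca
In the background, 29.6% of 14473 tested genes with a 3′UTR held the heptamer. Of the longer nonamer TTATTTATT, Ltf again held 1, as did 7.95% of these genes.

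**Figure D1:**
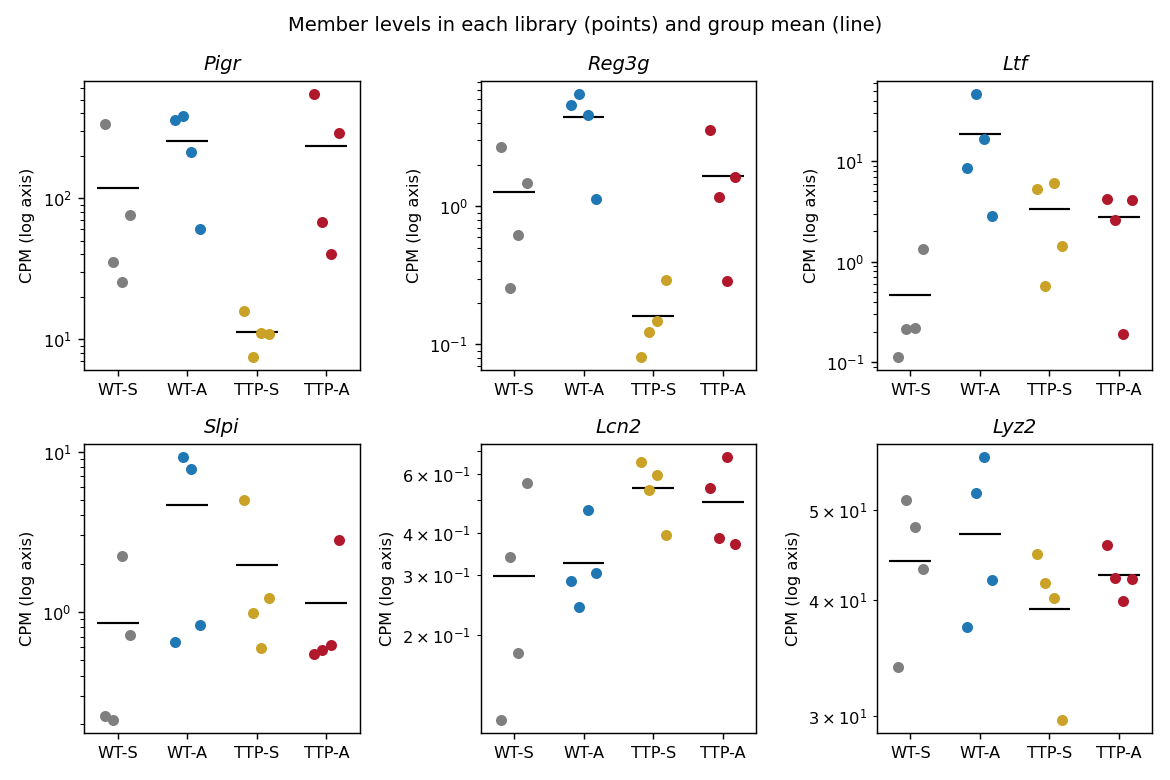
Levels of the 6 tested genes in CPM on log axes, 1 point per library and 1 line per group mean, with 4 libraries in each of the 4 groups. All TTP-S points for Pigr lie between 7.45 and 15.7, below every other library, while Lyz2 spans only 29.7 to 57.0 over all 16.

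The immunoglobulin transporter Pigr had the largest A minus S difference of the 6 tested members in TTPΔARE mice. It was at 15.7, 7.45, 11.1 and 10.9 CPM in TTP-S 1 to 4, against 546, 67.6, 40.1 and 288 CPM in TTP-A 1 to 4. Every TTP-A library lay above every TTP-S library, although TTP-A libraries also differed widely among themselves; 13.7% of all genes tested showed such non-overlap. Pigr rose 20.8-fold in TTP-A over TTP-S, by 4.38 on the log2 scale (SE 0.96, 95% interval 2.34 to 6.42, edgeR quasi-likelihood adjusted p = 0.026). An exact permutation test of its log2 CPM (two-sided) gave p = 0.0286, the smallest that 4 libraries against 4 allow.

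That call was close to the threshold. Leaving out TTP-S 1, TTP-S 2, TTP-S 3 or TTP-S 4 gave edgeR adjusted p-values of 0.0589, 0.0886, 0.0777 and 0.0954. Without TTP-A 1 it was 0.0996 and without TTP-A 4 it was 0.0769. The call held without TTP-A 2 or TTP-A 3, and the log2 difference stayed between 3.55 and 4.73 in all 8 of these fits.

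In WT mice Pigr was at 336, 35.1, 25.4 and 76.4 CPM in WT-S 1 to 4, and at 356, 383, 214 and 60.1 in WT-A 1 to 4. WT-S 1 was as high as the upper WT-A libraries, and WT-A 4 was lower than both WT-S 1 and WT-S 4, so the groups overlapped. The WT-A minus WT-S difference was 1.10 on the log2 scale (SE 0.82, 95% interval -0.65 to 2.85, edgeR adjusted p = 0.342), and 1.65 over the 14 libraries (edgeR adjusted p = 0.263). Without WT-S 1 it was 2.48 (edgeR adjusted p = 0.0438), so this library alone decided the call.

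The low TTP-S values of Pigr set it apart from WT-S. All 4 TTP-S libraries were below all 4 WT-S libraries, and group means were 118 ± 147 CPM for WT-S and 11.3 ± 3.39 for TTP-S (SD over 4 libraries). The TTP-S minus WT-S difference of -3.38 on the log2 scale (SE 0.93, 95% interval -5.35 to -1.41) did not pass over all genes in edgeR (adjusted p = 0.287; exact permutation p = 0.0286), whereas the DESeq2 Wald test gave -3.39 with an adjusted p of 0.0263. Without WT-S 1 the edgeR difference was -2.01 (adjusted p = 0.82). Non-overlap of TTP-S and WT-S was found in 6.74% of the tested genes.

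In the A condition the genotypes were at like mean levels, 253 ± 149 CPM in WT-A and 236 ± 235 in TTP-A (SD over 4 libraries). The log2 difference was -0.10 (95% interval -1.83 to 1.62, edgeR adjusted p = 0.941). Over the 14 libraries it was -0.65 (edgeR adjusted p = 0.747). The test of whether the A minus S difference itself differed between genotypes gave 3.28 (SE 1.21, edgeR adjusted p = 0.242), which did not pass. The larger Pigr difference in TTPΔARE mice is thus not shown to differ from that in WT. Per kilobase of transcript, Pigr mean levels were 30.7 CPM in WT-S and 2.94 in TTP-S, against 65.8 in WT-A and 61.2 in TTP-A.

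Markers of mucous neck cells and SPEM moved in the same TTPΔARE comparison. The summed level of 5 such genes (Muc6, Tff2, Aqp5, Cd44 and Gpx2) was 908 to 1187 CPM in TTP-S and 1374 to 4023 in TTP-A, with no overlap, and 2 of the 5 rose, against 1.55% of all genes. Muc6, the gland mucin, rose by 2.13 on the log2 scale (edgeR adjusted p = 0.0352) and Gpx2 by 0.83 (edgeR adjusted p = 0.0369). Other lists moved there too. The sum of 4 surface mucous cell markers was 55850 to 60080 CPM in TTP-S and 29830 to 52910 in TTP-A, and 1 of the 4, Muc5ac, fell by 1.05 (edgeR adjusted p = 0.0228), with all 4 called by DESeq2. Of 7 adipose markers 2 fell, Cfd by 1.45 (edgeR adjusted p = 0.0417) and Fabp4 by 0.68 (edgeR adjusted p = 0.0208); 1.35% of all genes were called lower. Of 5 chief cell markers 1 rose, Bhlha15 by 0.67 (edgeR adjusted p = 0.039). Chia1, Pgc, Gif and Pga5 differed by -0.55, -0.16, -0.053 and 0.37 and were not called. Of 2 exocrine pancreas markers tested 1 fell, Cela1 by 0.46 (edgeR adjusted p = 0.0352), and Cel differed by 0.15 (edgeR adjusted p = 0.827). WT-S 1, the WT-S library high in Pigr, had a mucous neck cell and SPEM sum of 3241 against 989 to 1504 in the other WT-S libraries, and WT-A libraries had 2319 to 2726. WT-A 4 had a sum of 2696 with the lowest Pigr of its group, so Pigr did not follow the sum there. The part of any of these cells in the Pigr result was not tested.

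Plasma cells make the immunoglobulin cargo of Pigr. Jchain, the chain that joins IgA and IgM into polymers, averaged 3.90 ± 3.25 CPM in WT-S, 0.291 ± 0.163 in TTP-S, 0.998 ± 0.701 in WT-A and 0.602 ± 0.457 in TTP-A (SD over 4 libraries). It fell by 1.94 on the log2 scale in WT-A against WT-S (edgeR adjusted p = 0.0354). In TTP-A minus TTP-S its difference was 1.09 (edgeR adjusted p = 0.593). In TTP-S minus WT-S the Jchain difference was -3.74 (SE 0.71, edgeR adjusted p = 0.0828), which did not pass. DESeq2 called 1 of the 3 tested plasma cell genes there. Derl3, a secretory-pathway gene of the plasma cell list, also fell in WT-A against WT-S, by 0.98 (edgeR adjusted p = 0.00737), and was higher in TTP-A than WT-A by 0.99 (edgeR adjusted p = 0.0232). It did not follow Jchain in TTP-S minus WT-S, where Derl3 differed by -0.15 (edgeR adjusted p = 0.978). Mzb1 and Tnfrsf17 of the same list had 0 to 8 and 0 to 2 counts per library. The heavy-chain genes Igha and Ighm were not matched in the table. The summed level of the 5 matched plasma cell genes, 256 to 320 CPM in all libraries, was mostly Xbp1, which epithelial secretory cells also express. Xbp1 rose by 0.25 in TTP-A over TTP-S (edgeR adjusted p = 0.0385).

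The lectin gene Reg3g followed Pigr across libraries at a much lower level. It was at 2.69, 0.255, 0.616 and 1.49 CPM in WT-S 1 to 4, at 5.38, 6.49, 4.60 and 1.13 in WT-A, at 0.081, 0.124, 0.148 and 0.295 in TTP-S, and at 3.54, 1.16, 0.288 and 1.62 in TTP-A. WT-A 1 to 3 were above every other library, TTP-S held only 2 to 6 counts per library, and TTP-A 3 fell within the TTP-S range. Across the 16 libraries log2 CPM of Reg3g and Pigr had a Pearson correlation of 0.93 (Spearman 0.912), and 0.871 for deviations from the group means. These points share the libraries and their depth. This relation is a description.

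The Reg3g difference in TTP-A minus TTP-S was 3.35 on the log2 scale (SE 0.90, 95% interval 1.45 to 5.26, edgeR adjusted p = 0.0556, exact permutation p = 0.0571), just outside the threshold. The DESeq2 Wald test gave an adjusted p of 0.00445, and edgeR over the 14 libraries, which drops none of this comparison's libraries but redoes the filter, the scaling and the shared spread, gave 0.0299. Single libraries moved it both ways: edgeR adjusted p was 0.0422 without TTP-A 2, 0.0429 without TTP-A 3 and 0.232 without TTP-A 1. With 14 counts summed over TTP-S and 143 over TTP-A, its depth was low.

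In WT the Reg3g difference was 1.85 (SE 0.66, 95% interval 0.46 to 3.24, edgeR adjusted p = 0.059). It was 2.28 over the 14 libraries (edgeR adjusted p = 0.0439). It also passed without WT-S 1 (2.52, edgeR adjusted p = 0.0253) and without WT-A 4 (2.17, edgeR adjusted p = 0.0276). Between genotypes the difference was -2.91 in S (SE 0.93, edgeR adjusted p = 0.399) and -1.41 in A (SE 0.63, edgeR adjusted p = 0.165). The interaction did not pass either (edgeR adjusted p = 0.516).

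Its neighbour Reg3b, another lectin of the family, was nearly absent. It had 14 counts in the 16 libraries together, 0 in 9 of them and at most 3 in any, while 3 counts correspond to 0.103 to 0.168 CPM here. No difference in Reg3b was detectable at this depth.

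**Figure D2:**
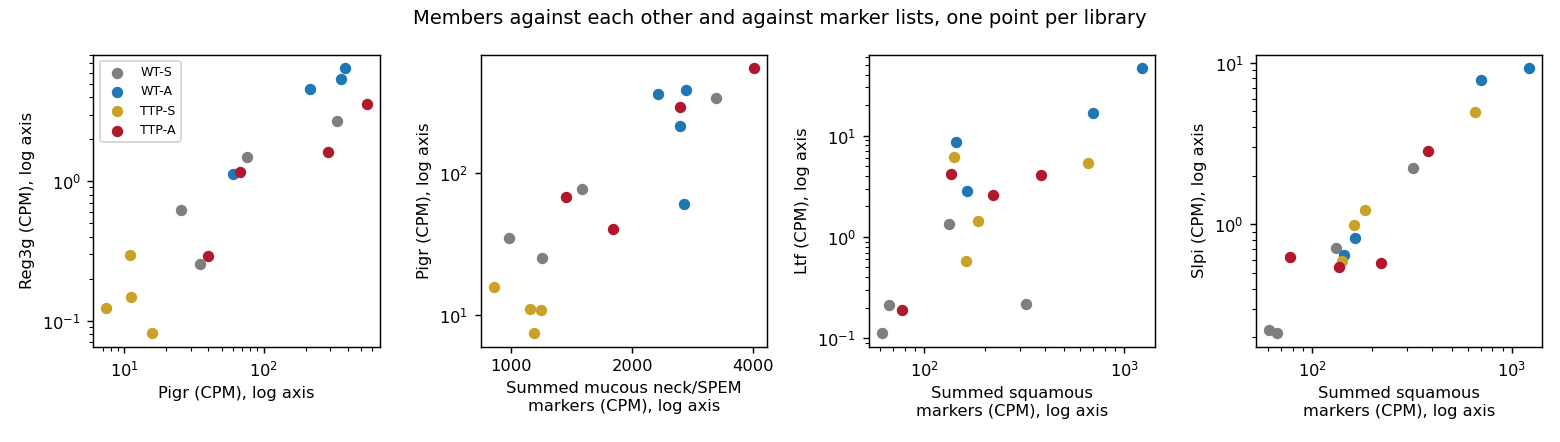
Each point is 1 library on log CPM axes, coloured by group: Reg3g against Pigr, Pigr against the summed mucous neck and SPEM markers, and Ltf and Slpi against the summed squamous markers. Slpi lies near a line with the squamous sum (Pearson 0.964 of log2 values, 16 libraries), Ltf follows it more loosely (0.732).

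Among the iron-binding members, lactoferrin (Ltf) had the widest range. It was at 0.112, 0.212, 0.220 and 1.33 CPM in WT-S 1 to 4, and at 8.63, 46.6, 16.7 and 2.83 in WT-A 1 to 4. All WT-A libraries were above all WT-S libraries, which is the pattern for which the gene was picked. Such non-overlap was found for 17.7% of all genes tested. WT-A 2 was the highest of all 16 libraries. Group means were 0.469 ± 0.577 and 18.7 ± 19.4 CPM (SD over 4 libraries), and the fitted difference was 5.34 on the log2 scale (SE 1.05), or 5.90 over the 14 libraries. Leaving out 1 library at a time, it lay between 4.34 (without WT-A 2) and 6.61 (without WT-S 4).

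In TTPΔARE mice, which the choice of Ltf did not use, it was at 5.31, 0.576, 6.13 and 1.43 CPM in TTP-S 1 to 4 and at 4.22, 2.61, 0.192 and 4.12 in TTP-A 1 to 4. The groups overlapped throughout, and TTP-A 3 was the lowest. The difference was -0.26 (SE 0.87, 95% interval -2.11 to 1.59, edgeR adjusted p = 0.947). Described without a test, the log2 difference was 2.86 for TTP-S minus WT-S and -2.74 for TTP-A minus WT-A, or -3.30 over the 14 libraries. The A minus S difference in TTPΔARE mice minus that in WT mice was -5.60, or -6.16 over the 14 libraries.

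Lcn2, the other iron-withholding member, was low everywhere. It was at 2 to 16 counts, or 0.112 to 0.672 CPM, with group means of 0.298 ± 0.201 in WT-S, 0.542 ± 0.110 in TTP-S, 0.326 ± 0.0987 in WT-A and 0.494 ± 0.143 in TTP-A (SD over 4 libraries). Its A minus S difference was 0.12 in WT (95% interval -0.73 to 0.97, edgeR adjusted p = 0.856; -0.17 over the 14 libraries) and -0.14 in TTPΔARE mice (95% interval -0.90 to 0.62, edgeR adjusted p = 0.923). The genotype difference was 0.86 in S (edgeR adjusted p = 0.628). In A it was 0.60 (edgeR adjusted p = 0.304), or 0.88 over the 14 libraries.

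The protease inhibitor gene Slpi was at 0.224, 0.212, 2.25 and 0.717 CPM in WT-S 1 to 4, and at 0.650, 9.28, 7.80 and 0.826 in WT-A. It was at 4.98, 0.988, 0.593 and 1.23 in TTP-S, and at 0.545, 0.580, 0.624 and 2.83 in TTP-A. WT-A 2 and WT-A 3 were the highest, and every pair of groups overlapped. The WT-A minus WT-S difference was 2.42 on the log2 scale (SE 0.95, 95% interval 0.39 to 4.44, edgeR adjusted p = 0.0828), or 2.51 over the 14 libraries (edgeR adjusted p = 0.127). Without WT-A 1 it was 2.78 and passed (edgeR adjusted p = 0.0298).

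For Slpi in TTPΔARE mice the A minus S difference was -0.78 (SE 0.95, 95% interval -2.81 to 1.24, edgeR adjusted p = 0.796). The genotypes differed by 1.18 in S (edgeR adjusted p = 0.905) and by -2.02 in A (SE 0.92, edgeR adjusted p = 0.172; 14 libraries -2.11, 0.26). The interaction of -3.20 did not pass (SE 1.35, edgeR adjusted p = 0.29).

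Ltf and Slpi varied with genes of keratinised squamous epithelium, the lining of the forestomach that borders the lesser curvature. The summed level of 10 such markers was 61.1, 66.6, 322 and 132 CPM in WT-S 1 to 4, 145, 1225, 699 and 163 in WT-A, 657, 162, 141 and 185 in TTP-S, and 136, 221, 77.3 and 381 in TTP-A. Sprr1a, which is on this list, was at 57.7 CPM or more in each WT-S library and at 94.7 or more in WT-A. It was at 113 or more in TTP-S and 74.0 or more in TTP-A, so it made up most of the lowest sums. WT-A 2 and WT-A 3, the libraries with the most Ltf and Slpi, had the highest sums. Over 16 libraries the sum had a Pearson correlation of 0.964 with Slpi and 0.732 with Ltf (log2 values), and 0.951 and 0.622 for deviations from the group means.

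The defining squamous keratins were not at 0 in most libraries. Krt13 had 18 counts or more in every library, Krt5 was at 0 in 1 library and Krt14 in 2. Of the 9 squamous markers tested, all 9 were higher in WT-A than in WT-S, with a list median of 2.74 on the log2 scale. Only 1 was called, Krt6a (4.19 on the log2 scale, edgeR adjusted p = 0.0241), where 9.8% of all genes were called higher. At an unadjusted p under 0.05 there were 5, against 36.5% of all genes. The list median was 1.70 in TTP-S minus WT-S and -0.52 in TTP-A minus TTP-S. It was -2.04 in TTP-A minus WT-A and -3.62 in the interaction, and 0 were called in these comparisons. The relation with Ltf had exceptions: WT-S 3 had a squamous sum of 322 with Ltf at 0.220 CPM, and TTP-S 3 had a sum of 141 with Ltf at 6.13. Of that sum of 141, Sprr1a made up at least 113. The part of squamous tissue in the Ltf and Slpi values was not tested.

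Neutrophils store lactoferrin, Lcn2 and lysozyme in their granules, and their markers were close to the floor. The sum of 10 neutrophil genes was 0.382 to 1.12 CPM in WT-S and 0.296 to 1.54 in TTP-S, against 0.826 to 3.39 in WT-A and 0.580 to 1.81 in TTP-A. S100a8 had 0 to 7 counts, S100a9 0 to 20 and Ngp 0 to 3, with 0 in 12 libraries. Retnlg, the only one of the list that could be tested, was called higher in WT-A (edgeR adjusted p = 0.0234), with 0 to 4 counts in WT-S and 3 to 48 in WT-A.

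Of the lysozymes, Lyz2, the form of macrophages and other myeloid cells, was the steadiest member. It lay between 29.7 and 57.0 CPM in all 16 libraries, a highest-to-lowest ratio of 1.92, with group means of 44.1 ± 7.57 in WT-S, 39.1 ± 6.55 in TTP-S, 47.1 ± 9.02 in WT-A and 42.5 ± 2.49 in TTP-A (SD over 4 libraries). The A minus S difference was 0.096 in WT (95% interval -0.22 to 0.41, edgeR adjusted p = 0.663) and 0.12 in TTPΔARE mice (95% interval -0.19 to 0.43, edgeR adjusted p = 0.799). Between genotypes it was -0.17 in S (edgeR adjusted p = 0.91) and -0.15 in A (edgeR adjusted p = 0.521; -0.074 over the 14 libraries). In the same libraries the sum of 8 macrophage markers was 112 to 142 CPM in WT-S and 133 to 207 in WT-A, and 4 of the 8 rose in WT-A (9.8% of all genes were called higher), among them Cd68 by 0.95 on the log2 scale. None of the 8 was called in TTP-A minus TTP-S in edgeR or DESeq2, with 2 at an unadjusted p under 0.05 (15.9% of all genes).

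Lyz1, the Paneth cell lysozyme of the intestine, had 0 to 10 counts per library and 69 in all. Of the 50-base words of its transcript, 16.1% also occur in Lyz2, so its few counts could in part be Lyz2 reads. The same holds for 15.4% of Lyz2 words. Per kilobase of transcript Lyz2 averaged 29.7 to 35.8 CPM in the 4 groups, and Lyz1 at most 0.181.

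The serum amyloid genes were at the detection limit. Saa1 had 4 counts in all, 0 in 12 libraries and at most 1. Saa3, the form made outside the liver, had 1 to 6 counts per library. No change in either was detectable. Saa2, the closest relative of Saa1, had 0 counts in all 16 libraries, which allows at most 0.103 to 0.168 CPM per library, for counting error only.

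**Figure D3:**
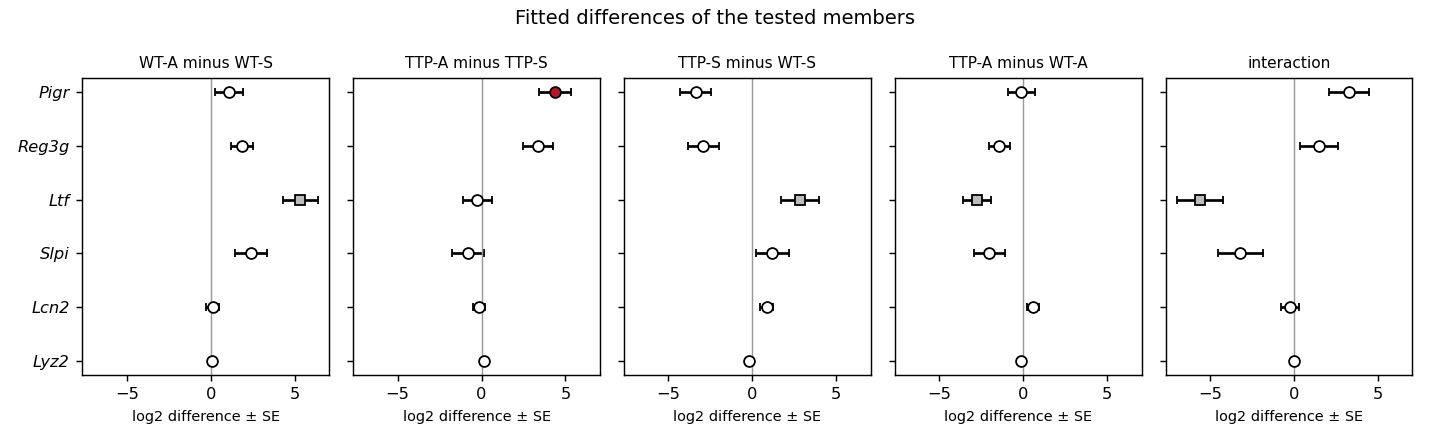
Fitted log2 differences with SE of the 6 tested genes in the 4 pairwise comparisons and the interaction (A minus S in TTPΔARE minus A minus S in WT). The filled red point is the single call, Pigr in TTP-A minus TTP-S (4.38); grey squares are Ltf values given with no test, and open circles did not pass.

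Counted over the members, 1 of 6 was called in TTP-A minus TTP-S, where 2.9% of all 15385 genes were called and 1.55% were called higher. At an unadjusted p under 0.05 there were 2 of 6, against 15.9% of all genes, and DESeq2 called 2, Pigr and Reg3g. In WT-A minus WT-S, 0 of the 5 members other than Ltf were called, against a background of 18.8%. At an unadjusted p under 0.05 there were 2 of 5, near the 36.5% of all genes, and 0 by DESeq2. Over the 14 libraries 1 of the 5 was called there.

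Between genotypes 0 of 5 passed in either condition. In S the background was 0.0325%, 3 members had an unadjusted p under 0.05 (7.49% of all genes did), and DESeq2 called 1, Pigr. In A the background was 5.17%, with 2 at an unadjusted p under 0.05 (27.5% of all genes) and 0 by DESeq2. For the interaction 0 of 5 were called against 0.0585% of all genes, with 2 at an unadjusted p under 0.05 (15.2% of all genes) and 0 by DESeq2. The A minus S comparisons share no libraries with each other, but each shares libraries with the comparisons between genotypes.

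Genes with the pattern most like each member, out of 13288 with a mean of at least 1 CPM, were listed by Pearson correlation of log2 CPM over the 16 libraries. For Pigr they were Bpifb1 (0.971), which encodes a secreted airway and gastric protein of the BPI fold family, Diras2 (0.959) and Shisa6 (0.956). Bpifb1 (0.946) and Diras2 (0.937) recurred for Reg3g, together with Pgm2 (0.939). For Ltf they were the stress keratins Krt17 (0.917), Krt6a (0.905) and Krt16 (0.902). For Slpi they were Dapl1 (0.977), Alox12b (0.959) and Sbsn (0.958), the last 2 being genes of the cornifying epidermis.

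The likest genes of the other tested members were less close. For Lcn2 the highest were Arhgef12 (0.861), Amigo1 (0.834) and Itih5 (0.833), and for Lyz2 Iqce (0.809), Zfp109 (0.804) and Man1c1 (0.771). All these are descriptions of 16 points that share their groups and depths.

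**Figure D4:**
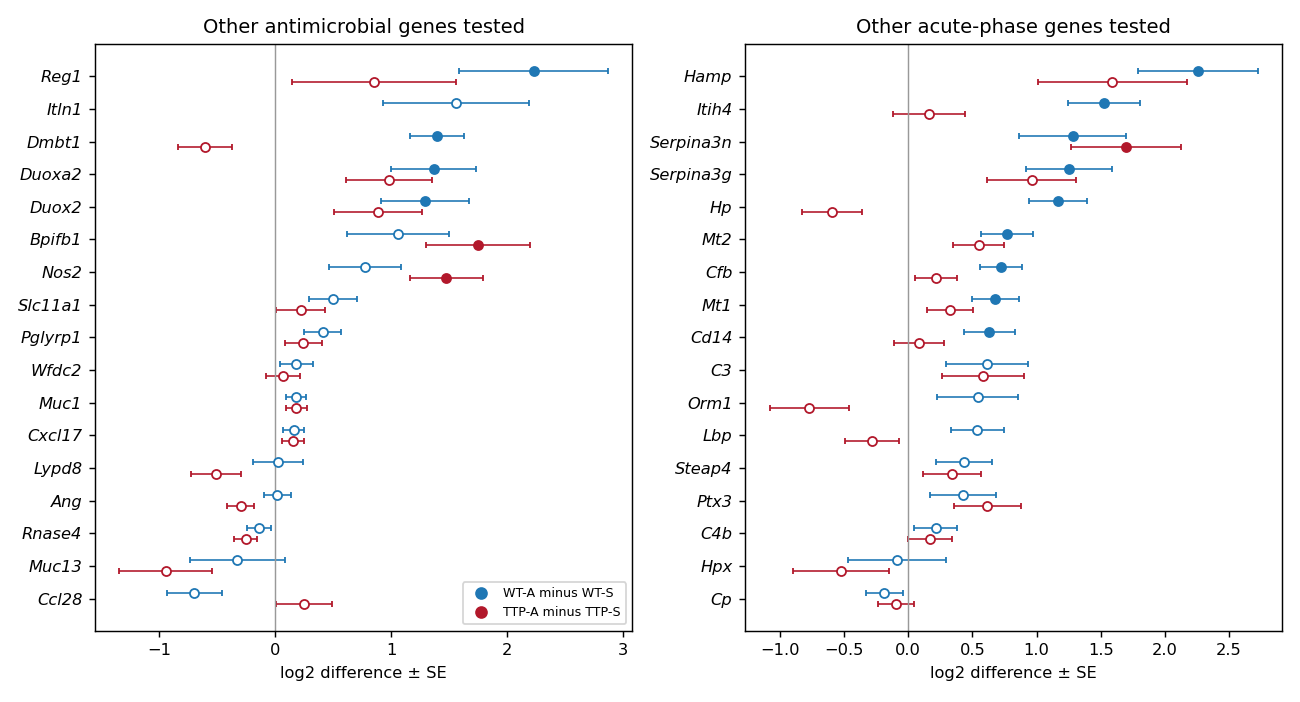
Fitted log2 differences with SE for the tested genes of a list of other mucosal antimicrobial genes and a list of other acute-phase genes, in WT (blue) and TTPΔARE mice (red), with filled points called. Itln1 has no red point because TTP-S held 0 to 1 counts; Dmbt1 lies at 1.39 in WT and -0.61 in TTPΔARE mice.

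Part of the other antimicrobial genes of mucosa rose. This list and those that follow were chosen with earlier results of these data known, so their counts beside the shares of all genes are descriptions. In the WT comparison corpus gland markers moved beside the lists; 9.8% of all genes were called higher there and 8.99% lower. The sum of 5 chief cell markers was 78570 to 153400 CPM in WT-S and 48990 to 103700 in WT-A, with Chia1 at -1.65 on the log2 scale (edgeR adjusted p = 0.00147) and Pgc at -0.82 (0.0219). The sum of 5 parietal cell markers was 20150 to 24260 CPM in WT-S and 15940 to 24590 in WT-A, with Slc26a7 at -0.91 (0.00748), Gif at -0.68 (0.0107) and Kcne2 at -0.45 (0.00681). Gif is also on the chief cell list. Of the 5 mucous neck and SPEM markers 2 rose, Gpx2 by 1.25 (edgeR adjusted p = 0.00179) and Cd44 by 0.76 (edgeR adjusted p = 0.0224). Of 5 hepatocyte markers tested 1 fell, Apob by 0.91 (edgeR adjusted p = 0.00848). Of 8 macrophage markers 4 rose, among them Cd14 by 0.63 (edgeR adjusted p = 0.0364), which is also on the acute-phase list. The part of these markers' cells in the list results was not tested.

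Of 33 listed antimicrobial genes, 17 were tested, and in WT-A minus WT-S 4 were called, all higher (9.8% of all genes were called higher), with a list median of 0.41 on the log2 scale against 0.0094 over all genes. Dmbt1, a scavenger receptor that aggregates bacteria, rose by 1.39 (edgeR adjusted p = 0.00226), from 130 ± 21.6 to 341 ± 94.0 CPM. The oxidase Duox2, which makes hydrogen peroxide at the apical surface, rose by 1.29 (edgeR adjusted p = 0.0295), from 256 ± 153 to 626 ± 170 CPM, and its maturation factor Duoxa2 by 1.37 (edgeR adjusted p = 0.0207; SD over 4 libraries). Reg1, a lectin relative of Reg3g, rose by 2.23 (edgeR adjusted p = 0.0272), at 0.213 ± 0.166 and 0.969 ± 0.706 CPM.

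Of these 4, Dmbt1 passed with any 1 library left out, and was the only one called with only the WT groups fitted. Reg1 did not pass without WT-S 2, WT-S 3 or WT-S 4 (edgeR adjusted p up to 0.0752), nor did Duoxa2 without WT-S 3, WT-S 4 or WT-A 3 (up to 0.056). Duox2 did not pass without WT-S 2, WT-S 3, WT-S 4 or WT-A 3 (up to 0.0731), nor over the 14 libraries (0.0606). Over the 14 libraries 3 of the list were called. The count ranged from 1 (without WT-S 3 or WT-S 4) to 7 (without WT-S 1), and was 2 without WT-A 3.

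In TTP-A minus TTP-S 3 of the 17 were called, all higher (1.55% of all genes were called higher), with a median of 0.22 against -0.0010 over all genes. Intelectin 1 (Itln1), a lectin of mucous cells that binds microbial sugars, had 0 to 1 counts per library in TTP-S and 8 to 78 in TTP-A (edgeR adjusted p = 0.00633), and passed with any 1 library left out. Bpifb1 rose by 1.75 (edgeR adjusted p = 0.0484), from 177 ± 40.1 to 597 ± 366 CPM (SD over 4 libraries). The inducible nitric oxide synthase Nos2 rose by 1.48 (edgeR adjusted p = 0.0245). Bpifb1 did not pass without any 1 of the TTP-S libraries, TTP-A 1 or TTP-A 4 (edgeR adjusted p up to 0.2), nor did Nos2 without TTP-S 1, TTP-S 2, TTP-S 4, TTP-A 1, TTP-A 3 or TTP-A 4 (up to 0.0931). The count was 1 without TTP-S 1, TTP-S 2, TTP-S 4, TTP-A 1 or TTP-A 4, and 7 without TTP-A 2.

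Markers of cell types also differed between TTP-A and WT-A, the comparison of the genotypes in A that follows, where 2.87% of all genes were called higher and 2.3% lower. Higher in TTP-A were Chia1 by 1.09 on the log2 scale (edgeR adjusted p = 0.027) and Bhlha15 by 0.84 (0.015) of the chief cell list, Kcne2 by 0.38 (0.0372) of the parietal list, Serpina1a by 1.13 (0.0442) of the hepatocyte list and Derl3 by 0.99 (0.0232) of the plasma cell list. Lower in TTP-A were Gpx2 (-0.98, edgeR adjusted p = 0.0176) of the mucous neck cell and SPEM list and Cela1 (-0.57, 0.0149) of the exocrine pancreas list. The part of their cells in the antimicrobial, acute-phase and regulator values of TTP-A minus WT-A was not tested.

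Between genotypes, Dmbt1 fell by 1.08 on the log2 scale in TTP-A against WT-A (edgeR adjusted p = 0.0232; -1.35 over the 14 libraries), the only call of the list there, where 2.3% of all genes were called lower. It did not pass with only those groups fitted (edgeR adjusted p = 0.125), nor without WT-A 3 (edgeR adjusted p = 0.0562), TTP-A 3 (0.078) or TTP-A 4 (0.0625). Its mean in TTP-S was 246 ± 42.8 CPM, and that in TTP-A 162 ± 60.9 (SD over 4 libraries), and the A minus S difference of -0.61 there did not pass (edgeR adjusted p = 0.188). The interaction for Dmbt1 was -2.00 (SE 0.33, edgeR adjusted p = 0.035; -2.27 and 0.00727 over the 14 libraries). With 1 library left out at a time it passed in 4 of 16 fits, without WT-S 1, WT-A 1, WT-A 4 or TTP-A 2, and the highest adjusted p was 0.124 without TTP-S 4. In TTP-S minus WT-S 0 of 17 passed in edgeR, with 6 at an unadjusted p under 0.05 (7.49% of all genes) and 1 in DESeq2, Dmbt1, and the most abundant of the list, Muc1 and Lypd8, differed by -0.046 and 0.42.

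Of 26 other acute-phase genes, 17 were tested, and 9 were called higher in WT-A than in WT-S (9.8% of all genes were), with 0 lower and a median of 0.63. Hepcidin (Hamp), the peptide hormone that limits iron export, rose by 2.26 (edgeR adjusted p = 0.00608), from 0.369 ± 0.265 to 1.75 ± 0.502 CPM (SD over 4 libraries). Hamp had 2 to 13 counts per library in WT-S and 29 to 67 in WT-A. Itih4, a plasma protease inhibitor chain, rose by 1.53 (edgeR adjusted p = 0.00356), with 4 to 6 counts per library in WT-S and 12 to 21 in WT-A. The serpins Serpina3n and Serpina3g rose by 1.28 and 1.25 (edgeR adjusted p = 0.0425 and 0.0199). Hamp and Itih4 passed with any 1 library left out and over the 14 libraries.

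Neither serpin passed over the 14 libraries (edgeR adjusted p = 0.0932 and 0.0709) or without WT-S 2, WT-S 3, WT-S 4 or WT-A 3, and Serpina3n not without WT-A 2 either (edgeR adjusted p up to 0.134 and 0.066). The count of 9 was 6 over the 14 libraries, 5 without WT-S 2 and 5 with only the WT groups fitted.

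In TTP-A minus TTP-S only Serpina3n was called among the 17 acute-phase genes, against 1.55% of all genes called higher; it rose by 1.70 (edgeR adjusted p = 0.0463), from 15.8 ± 4.06 to 51.0 ± 27.3 CPM (SD over 4 libraries). That call held without TTP-A 2 and was lost without any other 1 of the 8 libraries (edgeR adjusted p up to 0.179). TTP-A was lower than WT-A for haptoglobin (Hp, -1.43, edgeR adjusted p = 0.00795), which binds free haemoglobin, and for Hamp (-1.76, edgeR adjusted p = 0.0361), 2 of 17 where 2.3% of all genes were called lower. Hp passed with any 1 library left out and over the 14 libraries, but not with only those groups fitted (0.0535), where 0 of the 17 were called. Hamp did not pass over the 14 libraries (0.0522) or without WT-A 3, WT-A 4, TTP-A 2, TTP-A 3 or TTP-A 4 (up to 0.0915), and the count of 2 was 4 without WT-A 1.

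The acute-phase list had 0 calls in TTP-S minus WT-S (edgeR; 3 of 17 at an unadjusted p under 0.05 against 7.49% of all genes, 0 in DESeq2), where the most abundant, Mt1 and C3, differed by 0.30 and -0.13. It had 0 in the interaction (edgeR; 5 of 17 at an unadjusted p under 0.05 against 15.2% of all genes, 1 in DESeq2, Hp). The interaction of Hp also passed over the 14 libraries and without WT-S 1, WT-A 1 or WT-A 4.

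Cytokines, receptors and transcription factors known to act on such genes made a list of 38, of which 30 were tested. In WT-A minus WT-S 10 of the 30 were called higher, against 9.8% of all genes, and 1 lower (Lifr, against 8.99%), with a median of 0.26. Tnf had 2 to 3 counts per library in WT-S and 11 to 24 in WT-A (edgeR adjusted p = 0.00337). The interleukin 1 receptor antagonist Il1rn rose by 1.80 (edgeR adjusted p = 0.0153), the interleukin 6 family cytokine Lif by 1.08 (edgeR adjusted p = 0.00533) and the transcription factor Cebpb by 0.48 (edgeR adjusted p = 0.00815). Each of these passed over the 14 libraries and with any 1 library left out, except Il1rn without WT-S 2 (edgeR adjusted p = 0.0533). With only the WT groups fitted, Il1rn did not pass (0.0666) and 4 regulators were called. The 11 calls were 7 over the 14 libraries, 5 without WT-S 2, 7 without WT-S 3 or WT-S 4, and 6 without WT-A 3.

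In TTP-A minus TTP-S 2 of 30 regulators fell and 0 rose, against 1.35% of all genes called lower and 1.55% called higher: Cebpd by 0.80 on the log2 scale (edgeR adjusted p = 0.0179) and the interleukin 6 receptor Il6ra by 0.61 (edgeR adjusted p = 0.00819). Il6ra passed with any 1 library left out, and Cebpd did not without TTP-S 2, TTP-S 4 or TTP-A 4 (up to 0.0723). The list median was 0.015.

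TTP-A was lower than WT-A for 5 of 30 regulators, against 2.3% of all genes. With only those groups fitted, 0 of the 30 were called, and 1 gene of all those tested. These included Cebpb (-0.68, edgeR adjusted p = 0.00786), which passed with any 1 library left out and over the 14 libraries, where it was the only call, but not with only those groups fitted (0.0809). The others named were Lif (-0.77, edgeR adjusted p = 0.0477), Il17rc (-0.35, edgeR adjusted p = 0.0406) and Nfkb2 (-0.34, edgeR adjusted p = 0.0305). Each of these 3 failed to pass over the 14 libraries (edgeR adjusted p 0.171, 0.197 and 0.167), and passed in 2 of 8 fits when single libraries were dropped. The count ranged from 1 without WT-A 3, TTP-A 3 or TTP-A 4 to 10 without WT-A 1.

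For TTP-S minus WT-S and the interaction 0 of 30 regulators passed in edgeR, with 3 and 8 at an unadjusted p under 0.05 (7.49% and 15.2% of all genes) and 0 and 2 in DESeq2. The most abundant, Il6st and Stat3, had interactions of -0.11 and -0.26. Of the other cytokines listed, Il17a and Il22 had 0 counts in all 16 libraries and Il6 had 0 to 6.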

How the data were processed

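Values deposited by the authors were raw read counts, 1 table with a row per gene symbol and a column for each of the 16 libraries. Per the submitters' processing notes, the tools named were STAR 2.7.0f, featureCounts, Subread 1.6.4 and DESeq2, with the build mm10; the annotation, strandedness and filters are not given in the sources used here. Per the labels' protocols, RNA was extracted in TRIzol and libraries followed Illumina TruSeq. Sample titles gave the groups and replicate numbers.

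Counts were analysed as deposited in R 4.3.3 with edgeR 4.0.16: filterByExpr, TMM scaling, and 1 quasi-likelihood fit of group means over all 16 libraries, with Benjamini-Hochberg adjustment over the 15385 genes tested. "Called" means an adjusted p under 0.05. SEs follow from the fold change and its F statistic. CPM are counts scaled to TMM library size, given as mean ± SD. For members, an exact permutation test (two-sided, 70 regroupings) was run on log2 CPM (prior count 2). The scripts were tested on simulated data.

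The members and all lists were chosen with earlier results of these data known. Named genes were all 10 members and, per list and comparison, up to 4 called genes by size of change, or the 2 most abundant where none was called, plus the 3 genes most like each tested member; other genes that a count of 5 or fewer turned on were named after their values were seen. Promoters came from RefSeq (GRCm38.p6) and 3′UTRs from GENCODE M21; all 10 members had both. Alternatives were no filter, a mean CPM of at least 1, DESeq2 1.42.0 with its own size factors, only the groups compared, a replicate block, each library left out, and the 14 libraries without WT-A 3 and WT-A 4; running them on the listed genes as well was chosen after seeing the data. Replicate pairs of a group all differed beyond sampling noise (chi-square per degree of freedom 4.69 to 89.5). Limits set by low counts cover counting error only, since the reads carry no molecular identifiers.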

Additional observations from a re-analysis of the deposited data

Results flagged for a closer look

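In 24 groups of 4 libraries (6 genes in 4 groups), 4 had 1 library far from the other 3 by Dixon's criterion on CPM. For normal values chance meets it in about 1 group in 20, a rate that need not hold for skewed CPM. On log2 CPM 2 of the 24 met it, Slpi in TTP-A and Ltf in TTP-A, where TTP-A 3 was lowest. Pigr was at 336 CPM in WT-S 1 against 25.4 to 76.4 in the other WT-S libraries. Ltf was at 1.33 CPM in WT-S 4, or 26 counts, against 0.112 to 0.22. Slpi was at 4.98 CPM in TTP-S 1 against 0.593 to 1.23, and at 2.82 CPM in TTP-A 4 against 0.545 to 0.624.

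For Dmbt1 the A minus S difference passed the test of a difference between genotypes: the interaction was -2.00 on the log2 scale (edgeR adjusted p = 0.035), with means of 130 and 341 CPM in WT-S and WT-A, and of 246 and 162 in TTP-S and TTP-A. It passed in 4 of 16 fits that each dropped 1 library (highest adjusted p 0.124, without TTP-S 4), and not with the replicate block (0.0711).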

How the results depend on the processing

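Of the members' tested log2 differences under all alternatives, 373 kept their direction and side of the threshold, 11 newly passed, 6 no longer passed and 21 changed sign; none of the sign changes was in a called value. The 67 values of Ltf given with no test all moved by less than the spread between replicates. Lcn2 was at -0.17 in WT-A minus WT-S and 0.029 in the interaction over the 14 libraries. With 1 library left out, log2 differences spanned 0 for Lcn2 (-0.12 to 0.58) and Lyz2 (-0.011 to 0.19) in WT-A minus WT-S, Ltf (-0.62 to 0.18) and Slpi (-1.75 to 0.29) in TTP-A minus TTP-S, Pigr in TTP-A minus WT-A (-0.94 to 0.25) and Lyz2 in the interaction (-0.088 to 0.13).

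The number of members called in TTP-A minus TTP-S was 2 with DESeq2 and over the 14 libraries, and 0 to 2 with 1 library left out. In WT-A minus WT-S it was 1 over the 14 libraries and 0 to 2 with 1 library left out. In TTP-S minus WT-S it was 1 with DESeq2.

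Counts over all genes moved more. In WT-A minus WT-S 2891 genes were called, against 675 with only those groups fitted, 1620 over the 14 libraries and 1254 to 4977 with 1 library left out. In TTP-A minus TTP-S the 446 calls became 1195, 977 and 60 to 937 in that order, and 864 with DESeq2. In TTP-S minus WT-S 5 became 60, 57 and 1 to 15, and 98 with DESeq2. In TTP-A minus WT-A 796 became 1, 292 and 86 to 3202, and 1636 with DESeq2. The interaction's 9 became 46 over the 14 libraries, 2 to 211 with 1 library left out, 268 with DESeq2 and 4 with the replicate block.

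Replicate numbers did not pair the samples: over 11580 genes, deviations from the group means of same-numbered libraries correlated between -0.43 and 0.444, and 1 of 4 numbers in WT, and 1 of 4 in TTPΔARE mice, correlated best with its own. With the replicate number as a block, 1 member (Reg3g) was called in WT-A minus WT-S, and the other member calls were as without it; the call of Serpina3n was lost in WT-A minus WT-S (1.28, edgeR adjusted p = 0.0664) and in TTP-A minus TTP-S (1.68, 0.0817), and those of Dmbt1 in the interaction (0.0711), Il17rc (0.0553) and Lif (0.0739) in TTP-A minus WT-A.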
